A study of Mus musculus with 24 samples.

Results

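Fibroblast growth factor (FGF) signalling was followed through 10 genes in the urogenital sinus (UGS) of mouse embryos, the tube of endoderm and surrounding mesenchyme from which the prostate buds. The genes were the ligands Fgf7, Fgf10 and Fgf18, the receptors Fgfr1, Fgfr2 and Fgfr3, the ETS transcription factors Etv4 and Etv5, and the feedback inhibitors Spry2 and Dusp6. Every probe that the array design names after one of these genes was taken, which gave 19 probes for 10 of the 29273 distinct gene names on the array. Fgfr1 had 4 probes, Fgfr2 and Fgfr3 had 3 each, Etv5 and Spry2 had 2 each, and the other genes had 1.

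FGF ligands are secreted proteins that bind receptor tyrosine kinases with heparan sulphate as a cofactor, and the receptors signal through the RAS-MAP kinase cascade. ETS factors of the Etv4 and Etv5 kind and the inhibitors Spry2 and Dusp6 are switched on by that cascade, so their RNA is widely used as a readout of it. In the developing prostate, Fgf7 and Fgf10 are made by the mesenchyme and act on the epithelium through Fgfr2, and mice without Fgf10 form almost no prostatic buds.

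All embryos were C57BL/6J. At 6 h, 4 pools of UGS RNA from female embryos whose mothers had received 50 mg/kg dihydrotestosterone (DHT) at 16 days post conception (dpc) were each set against a pool from vehicle-treated pregnancies, on 8 arrays. At 12 h, 3 such pairs were measured on 6 arrays. In the remaining comparison, 5 pools of untreated males were set against pools of their female littermates at 17.5 dpc on 10 arrays. The labels also call this time point 48 h. Each pool held RNA from several embryos, accessory ducts had been dissected away, and sex had been read from the gonads. The male and female pools at 17.5 dpc were untreated, so that comparison is one of sex and carries no DHT pulse. The stated purpose was to profile androgen-dependent expression in the UGS.

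Each pair was hybridised in both dye orientations. The arrays of a pair correlated across probes at r = 0.351 to 0.741 between the sexes, at −0.512 to −0.0776 at 6 h and at −0.216 to 0.0902 at 12 h, after both had been turned the same way. The average of both orientations was used throughout. Median signals ran from 102.3 to 151.1 in the Cy3 channel, and the Cy5 channel had 98.14 to 146.2. Each comparison was hybridised on a day of its own, so day and comparison cannot be told apart. Embryos taken 6 h or 12 h after 16 dpc were also younger than those at 17.5 dpc. Age therefore cannot be told apart from comparison either. Of the 4 vehicle pools, 3 at 6 h carried Y-linked RNA although all were labelled female: the log2 level of Eif2s3y was 8.65, 7.64 and 7.80 in vehicle replicates 2, 3 and 4 and 6.02 in replicate 1, against 8.51 to 9.01 in male pools and 5.99 to 6.37 in female pools at 17.5 dpc. Results at 6 h that passed are given with replicate 1 alone beside the mean. Epithelium and mesenchyme were both represented: of the 26 epithelial and 14 mesenchymal markers, none was below the background limit on every array of a comparison.

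A ratio is given below as log2 of DHT over vehicle or of male over female, as the mean of both dye orientations of a pair. A level is the log2 signal of a pool after normalisation between arrays, and levels were compared within a probe only. A probe passed when its p from limma, after Benjamini-Hochberg adjustment across the 35477 tested probes, was below 0.05.

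Between the sexes at 17.5 dpc, the receptors Fgfr2 and Fgfr3, the MAP kinase phosphatase Dusp6, the ligand Fgf10 and the ETS factor Etv4 were higher in the male UGS, and the ligand Fgf18 was lower. After DHT, Fgf18 alone passed at 6 h, where it was higher in the DHT pools, and no member passed at 12 h. Of the 19 probes, 6 were higher and 1 was lower in males (limma), while 12 did not pass. That is 36.8% of the member probes, where 6.19% of all probes passed (3.11% higher and 3.08% lower). Members were chosen with earlier results of these data known, and several genes have more than 1 probe. Setting these shares, or those given below, side by side is therefore not a test of the group. At 6 h 1 probe was higher and 0 lower, with 2 at an unadjusted p under 0.05, and 1.69% of all probes passed (0.454% higher and 1.23% lower). At 12 h 0 probes passed in limma, with 5 at an unadjusted p under 0.05, and 0.276% of all probes passed (0.0987% higher and 0.178% lower). At an unadjusted p under 0.05 stood 13.6% of all probes at 6 h, 15% at 12 h and 16.5% between the sexes, where 9 member probes did. The median absolute log2 ratio of the 19 probes was 0.03 at 6 h, 0.08 at 12 h and 0.10 between the sexes, beside 0.04, 0.05 and 0.04 over all probes.

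**Figure D1:**
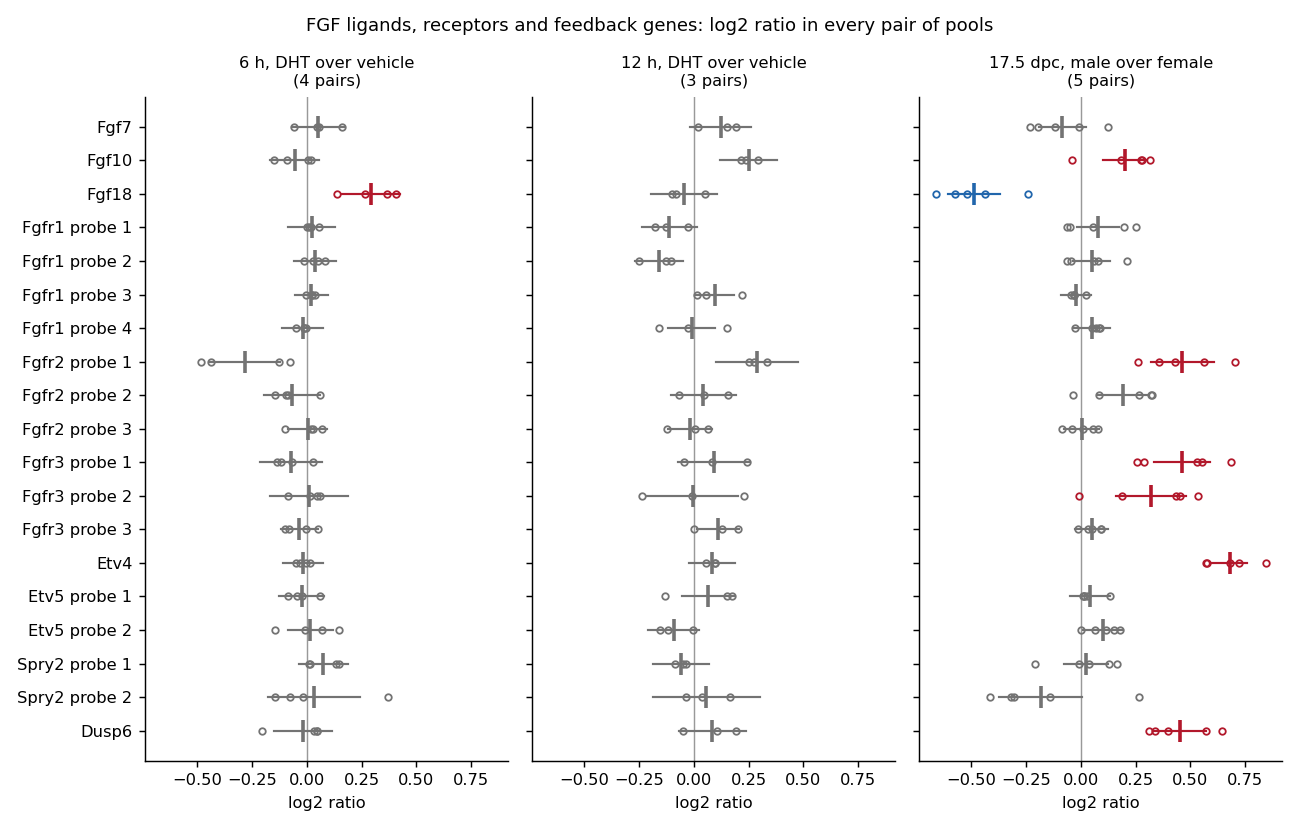
Log2 ratio (x axis) of the 19 probes (rows) in the 3 comparisons (panels). Open circles are pairs of pools, the vertical bar is their mean and the line its 95% interval from limma; red marks probes that passed and were higher, blue those that passed and were lower, grey those that did not pass. Most rows are centred near 0 in the DHT panels, while in the male-female panel Etv4 lies at 0.68 and Fgf18 at −0.49.

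Among the ligands, Fgf18, a ligand known best from skeletal and lung development, had the widest span of ratios over the 3 comparisons. Its log2 levels in the DHT pools at 6 h were 9.08, 9.13, 9.14 and 9.05 in replicates 1 to 4, against 8.68, 8.77, 8.88 and 8.91 in the vehicle pools. Every DHT pool was above every vehicle pool. The mean log2 ratio was 0.29 (SD 0.12, n = 4, 1.23-fold, limma adjusted p = 0.0299), with 0.41, 0.37, 0.26 and 0.14 in the pairs. The pair without Y-linked RNA in its vehicle pool, replicate 1, gave the highest of the 4 ratios, and both dye orientations gave a positive ratio in every pair. Replicate 1 alone had an adjusted p of 0.301. The call did not hold without replicate 1, 2 or 3 (adjusted p = 0.218, 0.171 and 0.079), with median centring (0.363), with the scanner's ratios (0.136) or when the 6 h arrays were fitted alone (0.0563).

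At 12 h the levels of Fgf18 were 8.92, 8.87 and 8.89 with DHT and 9.02, 8.96 and 8.84 with vehicle, and the groups overlapped. The log2 ratio was −0.04 (SD 0.08, n = 3, adjusted p = 0.846). The difference between 12 h and 6 h, −0.34, had a 95% interval of −0.54 to −0.14 and did not pass over all probes (adjusted p = 0.121).

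In males at 17.5 dpc the levels of Fgf18 were 8.43, 8.14, 8.02, 7.76 and 7.88, and in their female littermates 8.68, 8.58, 8.54, 8.42 and 8.45. The male was lower in every pair, although the highest male pool, 8.43, lay just above the lowest female pool, 8.42. Its mean log2 ratio was −0.49 (SD 0.16, n = 5, 1.40-fold lower, adjusted p = 8.45e-05). Replicate 1, which had the smallest difference at −0.24, rests on a single array because the spot on the other was marked as an outlier. The male-female ratio minus the 6 h DHT ratio was −0.78 (95% interval −0.96 to −0.61, adjusted p = 0.000136) and minus the 12 h ratio −0.44 (interval −0.64 to −0.25, adjusted p = 0.0279), which passed under 9 of 18 alternatives. The sex difference itself passed under all 15 alternatives run and ranged from −0.62 to −0.41. Some marker lists of other tissues were lower in males in the same 5 pairs. The Wolffian and Mullerian duct list read −0.44, −0.34, −0.27, −0.15 and −0.37, immune markers −0.35 to −0.05 and mesenchymal markers −0.55 to −0.03. Smooth muscle markers read −0.62 to −0.03. The endothelial, neuron and Schwann cell, skeletal muscle and red blood cell lists each had pairs of either sign. All 6 duct, 6 immune and 14 mesenchymal markers were measured, with none below the background limit on every array of the comparison. The summed level was 9.33 to 9.46 in males and 9.49 to 9.96 in females for ducts, 10.65 to 11.08 and 11.09 to 11.34 for immune cells. For mesenchyme it was 16.01 to 17.20 in males and 16.98 to 17.18 in females, which overlap. The part of these lists in the Fgf18 ratio was not tested.

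Fgf10, the mesenchymal ligand that buds require, was higher in males at 17.5 dpc. Its levels were 6.98, 7.56, 7.5, 7.42 and 7.63 in males and 7.02, 7.28, 7.22, 7.24 and 7.31 in females. Males were higher in 4 of 5 pairs, and replicate 1 had a ratio of −0.04. The mean was 0.20 (SD 0.14, n = 5, 1.15-fold, adjusted p = 0.0175). The call did not hold without any one of replicates 2 to 5 (adjusted p = 0.0571 to 0.071), with the scanner's ratios (0.32, adjusted p = 0.0531) or with the comparison fitted alone (0.143), and without replicate 1 the ratio was 0.26 (adjusted p = 0.000818).

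At 12 h all DHT pools had more Fgf10 than all vehicle pools, at levels of 6.89, 6.69 and 6.75 against 6.59, 6.48 and 6.51. The log2 ratio was 0.25 (SD 0.04, n = 3) and did not pass (adjusted p = 0.0812). The orientations read differently: the arrays with DHT in Cy5 gave 0.50, 0.49 and 0.61, and those with DHT in Cy3 gave 0.09, −0.06 and −0.13. At 6 h the ratio was −0.05 (SD 0.08, n = 4, adjusted p = 0.792), where the mean was 0.06 with DHT in Cy5 and −0.17 with it in Cy3. Between the sexes the mean was 0.28 with male RNA in Cy5 and 0.12 with it in Cy3.

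**Figure D2:**
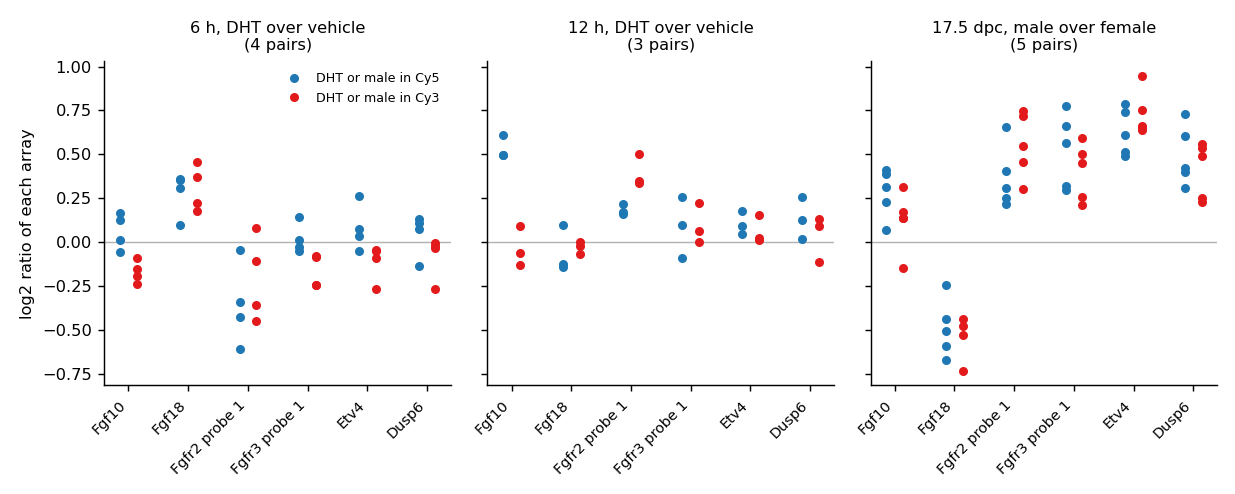
Log2 ratio of each array (y axis) for 6 members (x axis) in the 3 comparisons (panels), with the DHT or male pool in Cy5 (blue) or Cy3 (red). The Fgf10 arrays at 12 h form 2 separate groups, 0.49 to 0.61 and −0.13 to 0.09, whereas the Fgf18 arrays at 6 h and between the sexes lie on one side of 0 in both orientations.

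Fgf7, the second mesenchymal ligand of Fgfr2 and also called keratinocyte growth factor, did not pass in any comparison. The log2 ratio was 0.05 at 6 h (SD 0.09, n = 4), 0.12 at 12 h (SD 0.09, n = 3) and −0.09 between the sexes (SD 0.15, n = 5), with adjusted p of 0.836, 0.404 and 0.461 in limma. The 95% intervals, −0.07 to 0.17, −0.02 to 0.26 and −0.19 to 0.02, all contained 0. At 12 h its levels of 6.88, 6.95 and 6.98 with DHT did not overlap the 6.86, 6.79 and 6.78 with vehicle. The dye orientations read differently there: the mean ratio was −0.04 with DHT in Cy5 and 0.29 with it in Cy3. At 6 h these means were −0.38 and 0.48. Between the sexes the mean was −0.23 with male RNA in Cy5 and 0.06 with it in Cy3.

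Among the receptors, Fgfr2, whose epithelial splice form binds Fgf7 and Fgf10, passed on 1 of its 3 probes. Probe 1 (A_52_P363110), annotated to a cDNA clone, had log2 levels of 8.72, 9.04, 9.24, 9.36 and 9.31 in males and 8.46, 8.69, 8.81, 8.80 and 8.61 in females. Males were higher in all 5 pairs, with 1 male pool inside the female range. Its log2 ratio was 0.46 (SD 0.17, n = 5, 1.38-fold, adjusted p = 0.000706). Probe 2 (A_51_P432403), annotated to the RefSeq transcript, gave 0.32, 0.08, −0.04, 0.32 and 0.26 and a mean of 0.19 (SD 0.16, adjusted p = 0.0526). It passed only without replicate 3 (limma adjusted p = 0.00965). Probe 3 (A_52_P158800) was well above background in neither group at 6 h and on 5 of 10 arrays in males and 4 of 10 in females, and no ratio is given for it. The array design does not say which splice form each probe reads.

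With DHT, Fgfr2 probe 1 was lower at 6 h and higher at 12 h, and neither passed. At 6 h the levels were 8.63, 8.65, 8.79 and 8.77 with DHT and 9.07, 9.14, 8.92 and 8.85 with vehicle, with no overlap. The pairs gave −0.44, −0.48, −0.13 and −0.08, a mean of −0.28 (SD 0.21, adjusted p = 0.0771). At 12 h the pairs gave 0.25, 0.28 and 0.34, a mean of 0.29 (SD 0.04, adjusted p = 0.134). The rise from 6 h to 12 h of 0.57 had a 95% interval of 0.33 to 0.82 and an adjusted p of 0.0622, which passed with median centring (0.0299). The male-female ratio exceeded the 6 h ratio by 0.74 (interval 0.53 to 0.96, adjusted p = 0.000815), and by 0.49 (adjusted p = 0.171) with the mean ratio of epithelial markers as a covariate.

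Epithelial markers were read in the same pairs. The mean log2 ratio of the 26 epithelial markers was −0.51, −0.40, −0.08 and 0.02 in the 6 h pairs, 0.02, 0.29 and 0.59 in the 12 h pairs, and 0.10, 0.30, 0.50, 0.39 and 0.25 between the sexes. The summed level of that list was 14.64 to 14.93 with DHT and 14.87 to 15.30 with vehicle at 6 h, 15.25 to 15.99 and 15.25 to 15.34 at 12 h, and 15.73 to 16.19 in males against 15.50 to 15.78 in females. Of the 26 markers, 0 were below the background limit on every array of a comparison. In RNA from a mixed tissue, a smaller share of cells of a type and less RNA per cell cannot be told apart. The Fgf18 ratios at 6 h ran opposite to these means. Other lists also shifted in the 6 h pairs. Immune markers read 0.28, 0.22, 0.08 and 0.09, and neuron and Schwann cell markers 0.43, 0.13, 0.004 and −0.05. Smooth muscle markers went the other way, at −0.31, −0.04, −0.08 and −0.02. Skeletal muscle markers moved much as the epithelial ones did. They read −0.38, −0.26, 0.12 and −0.01 at 6 h and −0.01, 0.26 and 0.53 at 12 h. Red blood cell markers read 0.34, 0.30, −0.43 and −0.07 at 6 h. The shift in the DHT pairs was thus not limited to epithelial markers. The part of these lists in the ratios of Fgf18, Fgfr2 and Fgfr3 was not tested. A fit with the epithelial marker mean as a covariate took 1 slope over the 12 pairs and gives each ratio at an epithelial mean of 0. All 5 male-female pairs lay above 0, so their ratios in that fit are read outside their own range. With this covariate the 6 h ratio of Fgf18 was 0.23 (adjusted p = 0.242), and its male-female ratio was −0.41 (adjusted p = 0.00948). Fgf10 stood at 0.19 between the sexes in that fit (adjusted p = 0.226). In the same fit the male-female ratio of Fgfr2 probe 1 was 0.32 (adjusted p = 0.0617), and the 6 h ratio was −0.17 (adjusted p = 0.445).

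**Figure D3:**
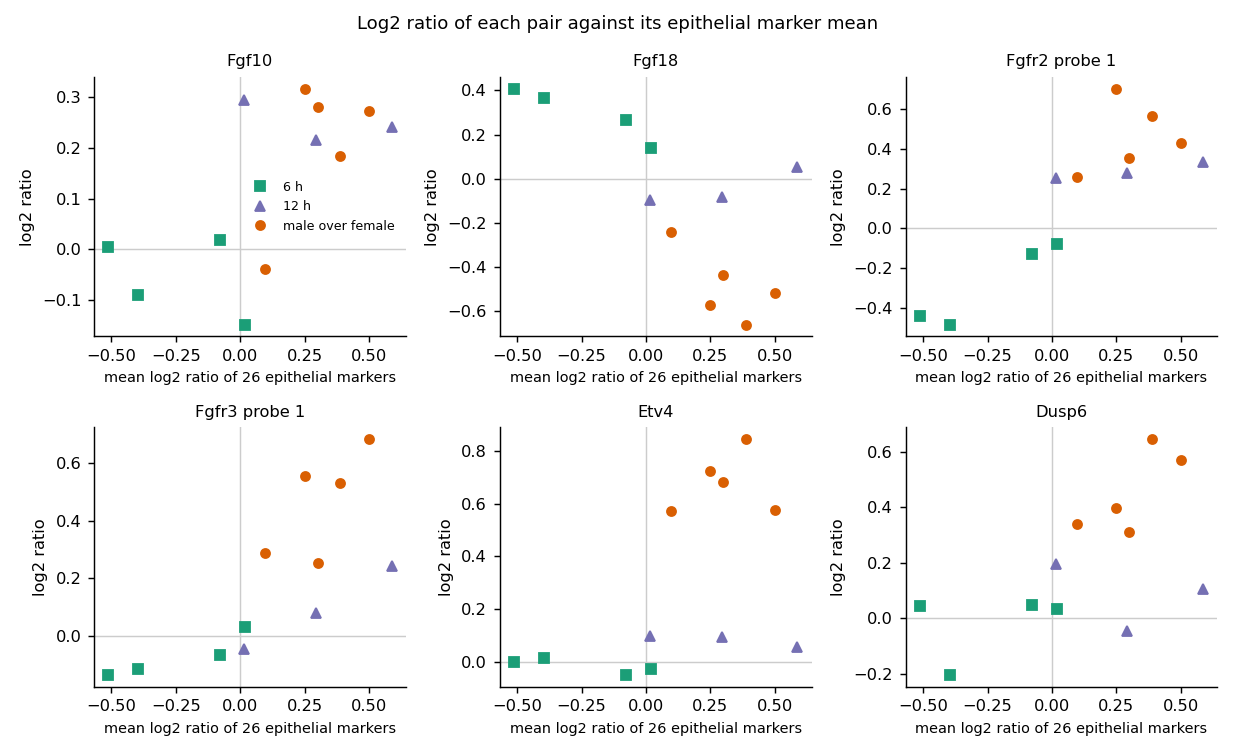
Log2 ratio of 6 members (panels, y axis) against the mean log2 ratio of 26 epithelial markers (x axis) in the same pair; squares are the 4 pairs at 6 h, triangles the 3 at 12 h and circles the 5 male-female pairs. At 6 h the pairs with the lowest epithelial mean, −0.51 and −0.40, have the lowest Fgfr2 probe 1 ratios and the highest Fgf18 ratios, while Etv4 stays between −0.05 and 0.10 in all 7 DHT pairs.

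Fgfr3, a receptor with epithelial and mesenchymal splice forms, was higher in males on 2 of its 3 probes. Probe 1 (A_52_P506516) had levels of 7.88, 7.93, 8.32, 8.36 and 8.24 in males and 7.59, 7.68, 7.64, 7.83 and 7.68 in females, and the groups did not overlap. Its log2 ratio was 0.46 (SD 0.18, n = 5, 1.38-fold, adjusted p = 0.000266). Probe 2 (A_51_P322906) gave −0.01, 0.19, 0.53, 0.43 and 0.45, a mean of 0.32 (SD 0.22, adjusted p = 0.019), and lost its call without replicate 3, 4 or 5 (adjusted p = 0.0684 to 0.0915). Probe 3 (A_51_P237613) was well above background on 1 of 10 male and 0 of 10 female arrays, so no fold is given for it. Beside the epithelial marker mean, probe 1 stood at 0.31 (adjusted p = 0.0212) and probe 2 at 0.14 (adjusted p = 0.506), and without it at 0.46 and 0.32.

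After DHT no Fgfr3 probe passed. Probe 1 had ratios of −0.14, −0.12, −0.07 and 0.03 at 6 h and −0.05, 0.08 and 0.24 at 12 h. Within each time point the pairs rank as they do by epithelial marker mean, whose part in these ratios was not tested. The male-female ratio of probe 1 exceeded its 6 h ratio by 0.53 (interval 0.34 to 0.73, adjusted p = 0.00352) and its 12 h ratio by 0.37 (interval 0.16 to 0.58, adjusted p = 0.0848). With the epithelial covariate the first difference was 0.27 (adjusted p = 0.389) and the second 0.37 (adjusted p = 0.0257). With 6 h replicate 1 alone the first was 0.60 (adjusted p = 0.153).

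Fgfr1, a receptor for many FGF ligands, did not pass on any of its 4 probes in any comparison. Between the sexes the 4 log2 ratios were 0.08, 0.05, −0.02 and 0.05. At 6 h probes 1 to 3 read 0.02, 0.04 and 0.02, and probe 4 (A_52_P136162), well above background there on 1 of 8 DHT arrays and 0 of 8 vehicle arrays, is given no ratio. At 12 h probes 1 and 2 read −0.11 (SD 0.08, n = 3) and −0.16 (SD 0.08, n = 3, adjusted p = 0.156), with the groups of pools not overlapping, whereas probe 3 read 0.10 and probe 4 −0.01. The 95% intervals of the 4 probes between the sexes lay within −0.09 to 0.18.

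Etv4, an ETS factor induced by FGF signalling in many budding organs, had the largest male-female ratio of the members. Its log2 levels were 7.5, 7.64, 7.58, 7.86 and 7.76 in males and 6.93, 6.95, 7.0, 7.01 and 7.04 in females. The lowest male pool was above the highest female pool. The log2 ratio was 0.68 (SD 0.11, n = 5, 1.60-fold, adjusted p = 2.8e-07), with 0.57, 0.68, 0.57, 0.84 and 0.72 in the pairs. With the scanner software's own ratios, which have no offset added to the signal, the ratio was 1.09 (adjusted p = 3.46e-06). With the epithelial marker mean as covariate it was 0.69 (adjusted p = 3.11e-05).

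In contrast to the sex difference, Etv4 read −0.02 at 6 h (SD 0.03, n = 4, interval −0.11 to 0.07) and 0.08 at 12 h (SD 0.02, n = 3, interval −0.02 to 0.19), and neither passed (adjusted p = 0.958 and 0.458). The male-female ratio exceeded the 6 h ratio by 0.70 (interval 0.58 to 0.82, adjusted p = 1.73e-05) and the 12 h ratio by 0.60 (interval 0.46 to 0.73, adjusted p = 0.000735). All 3 of these Etv4 results that involve the sexes passed under every alternative run, 15, 20 and 18 in number.

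Etv5, the close relative of Etv4, did not pass on either probe. Probe 1 (A_51_P323579) read −0.02, 0.06 and 0.04 at 6 h, at 12 h and between the sexes. Probe 2 (A_52_P631015) read 0.02, −0.09 and 0.10, the last with an unadjusted p of 0.0331 and an adjusted p of 0.237. That ratio was 0.48 (adjusted p = 0.053) with the scanner's ratios, which have no offset, and 0.03 with the epithelial covariate. Log2 levels lay between 6.21 and 6.62 for probe 1 and between 6.07 and 6.56 for probe 2, and at 6 h each failed the background limit on 2 of 8 arrays in the DHT channel. Between the sexes probe 2 was above that limit on 8 of 10 arrays in the female channel and on all 10 in the male channel. The offset added before log2 compresses the ratios of such dim probes.

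Dusp6, a phosphatase that dephosphorylates ERK and is induced by it, was higher in males. Its levels were 11.51, 11.10, 11.49, 11.67 and 11.54 in males and 11.17, 10.79, 10.92, 11.02 and 11.14 in females. Each male pool was above its littermate pool, and 1 male pool lay within the female range. The log2 ratio was 0.45 (SD 0.15, n = 5, 1.37-fold, adjusted p = 0.000164), and it stood at 0.40 with the epithelial marker mean as covariate (adjusted p = 0.0155). With DHT the ratio was −0.02 at 6 h (SD 0.12, n = 4), where replicate 2 read −0.20 and the others 0.03 to 0.05, and 0.08 at 12 h (SD 0.12, n = 3). Neither passed (adjusted p = 0.971 and 0.644). The male-female ratio exceeded the 6 h ratio by 0.47 (interval 0.29 to 0.65, adjusted p = 0.00476), and with 6 h replicate 1 alone that difference was 0.41 (adjusted p = 0.247). It did not pass with median centring either (0.41, adjusted p = 0.0635) or with the epithelial covariate (0.38, adjusted p = 0.307). The excess over the 12 h ratio was 0.37 (interval 0.17 to 0.56, adjusted p = 0.0673).

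Spry2, which blocks receptor signalling upstream of ERK, did not pass on either probe. Probe 1 read 0.08, −0.06 and 0.02 in the 3 comparisons, and probe 2, annotated to a cDNA clone, read 0.03, 0.06 and −0.18. Between the sexes probe 2 was lower in 4 of 5 pairs, at −0.14, −0.31, 0.27, −0.32 and −0.42 (SD 0.27, adjusted p = 0.325). Without replicate 3, the pair of opposite sign, it passed as lower in males (limma adjusted p = 0.0269). The 2 probes were spread widely over pools of the same sex: probe 1 ranged from 8.62 to 9.65 in males and from 8.83 to 9.62 in females.

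**Figure D4:**
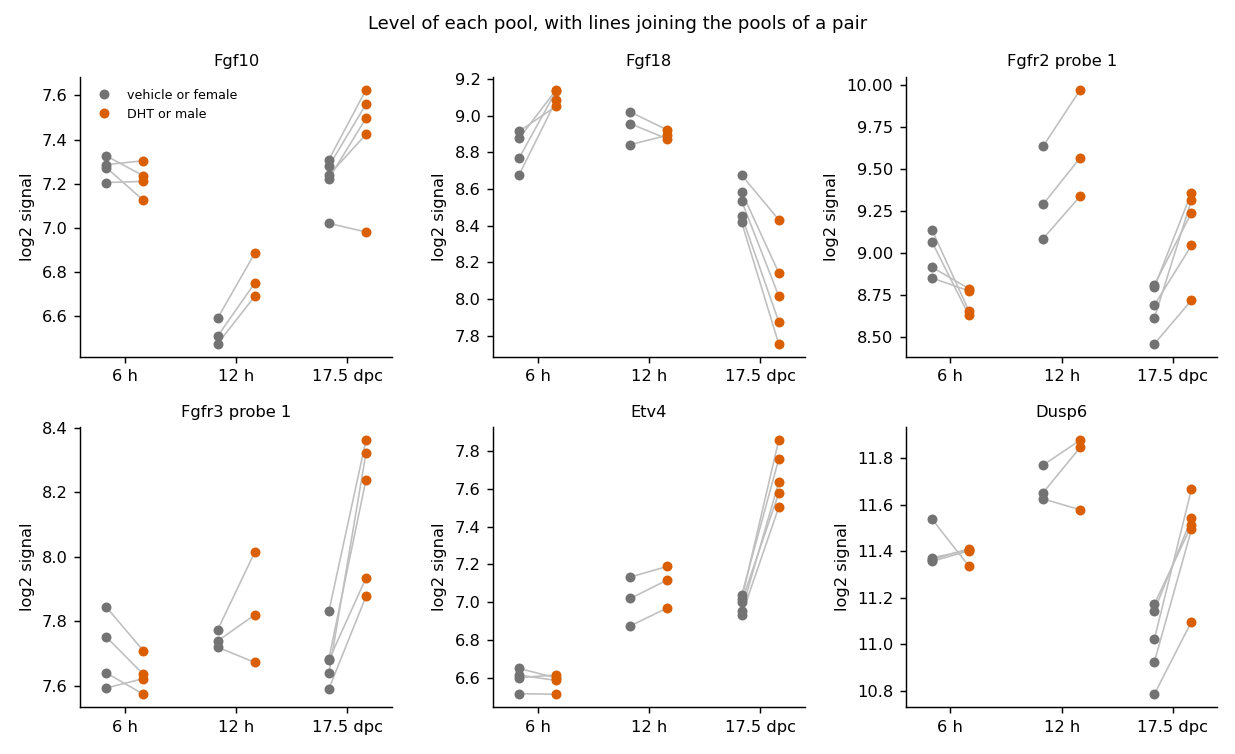
Log2 signal (y axis) of each pool for 6 members (panels) at 6 h, 12 h and 17.5 dpc; grey points are vehicle or female pools, orange points DHT or male pools, and lines join the pools of a pair. All 5 lines of Etv4, Fgfr2 probe 1, Fgfr3 probe 1 and Dusp6 rise from female to male and all 5 of Fgf18 fall, while the Fgf18 lines at 6 h rise from vehicle to DHT.

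Counted over all tests of a difference between comparisons, 6 of 19 member probes differed between the male-female and the 6 h ratio, 5 upward (Fgf10, Fgfr2 probe 1, Fgfr3 probe 1, Etv4 and Dusp6) and Fgf18 downward, where 5.67% of all probes passed (2.99% higher and 2.67% lower). The Fgf10 difference of 0.26 (adjusted p = 0.0476) passed under 6 of 20 alternatives. Between the male-female and the 12 h ratio 2 differed, Etv4 upward and Fgf18 downward, where 1.33% of all probes passed (0.668% higher and 0.662% lower). Between 12 h and 6 h 0 passed in limma, with 5 at an unadjusted p under 0.05 (14.8% of all probes), where 0.259% of all probes passed (0.197% higher and 0.062% lower). The DHT and male-female ratios share no pools.

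Levels that kept the groups of pools apart were counted too. At 6 h the groups did not overlap for 2 of 19 probes (7.39% of all probes), Fgf18 and Fgfr2 probe 1. At 12 h they did not overlap for 5 probes (8.56% of all probes), namely Fgf7, Fgf10 and Fgfr1 probes 1, 2 and 3. Of these, Fgf7, Fgf10 and Fgfr1 probe 3 had mean 12 h ratios of opposite sign in the dye orientations. For Fgfr1 probe 3 the means were 0.30 with DHT in Cy5 and −0.11 with it in Cy3. Between the sexes the groups of pools did not overlap for Etv4 and Fgfr3 probe 1, 2 of 19 (2.84% of all probes). All pairs had the same sign for 4 of 19 probes at 6 h (23.7% of all probes), 10 at 12 h (35.5%) and 6 between the sexes (14.7%).

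Starts of transcription with 250 bases before them were taken from RefSeq (GRCm38.p6) for 8 of the 10 members, all but Fgfr1 and Etv4. The windows of 5 genes that passed between the sexes are shown because their RNA carries the sex difference; a reader can set the sequence beside the ratio. They lie at chr13:118714449-118714698 on the plus strand, chr11:33147401-33147650 and chr7:130266809-130267058 on the minus strand, and chr5:33721474-33721723 and chr10:99262981-99263230 on the plus strand. The first of the RefSeq starts is used for Fgfr3. Each is written from 5′ to 3′ on the strand of its gene, and capitals mark the GC box, a binding motif of SP factors.
Fgf10: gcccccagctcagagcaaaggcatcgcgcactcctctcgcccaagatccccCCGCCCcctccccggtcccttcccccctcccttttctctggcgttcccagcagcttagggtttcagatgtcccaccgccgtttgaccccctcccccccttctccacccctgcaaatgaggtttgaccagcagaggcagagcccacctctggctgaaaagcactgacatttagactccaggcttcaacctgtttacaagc
Fgf18: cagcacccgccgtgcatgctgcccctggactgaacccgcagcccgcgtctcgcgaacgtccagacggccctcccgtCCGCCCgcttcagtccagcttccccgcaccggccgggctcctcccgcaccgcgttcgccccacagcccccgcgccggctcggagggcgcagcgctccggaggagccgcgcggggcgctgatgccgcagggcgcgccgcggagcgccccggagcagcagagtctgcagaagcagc
Fgfr2: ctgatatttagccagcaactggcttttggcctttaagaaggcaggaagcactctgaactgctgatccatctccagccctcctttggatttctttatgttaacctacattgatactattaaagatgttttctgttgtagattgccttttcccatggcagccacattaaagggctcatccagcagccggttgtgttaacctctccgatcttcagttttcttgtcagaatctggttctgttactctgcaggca
Fgfr3: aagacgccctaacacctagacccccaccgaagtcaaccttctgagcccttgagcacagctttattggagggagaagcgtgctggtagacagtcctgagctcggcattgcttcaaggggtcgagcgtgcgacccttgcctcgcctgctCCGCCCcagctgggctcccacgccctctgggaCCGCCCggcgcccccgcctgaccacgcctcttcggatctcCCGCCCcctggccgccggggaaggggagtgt
Dusp6: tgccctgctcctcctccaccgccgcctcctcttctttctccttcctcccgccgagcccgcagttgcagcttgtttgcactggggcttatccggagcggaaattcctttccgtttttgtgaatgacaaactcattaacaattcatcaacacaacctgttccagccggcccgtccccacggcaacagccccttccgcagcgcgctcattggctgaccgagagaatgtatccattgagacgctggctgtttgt

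The window of Fgf18 holds 77.2% G and C and that of Fgfr3 66.8%, against 61.2% for Fgf10, 56.4% for Dusp6 and 44.0% for Fgfr2, with a median of 52.4% over 32851 promoter windows. Motifs were searched on both strands. The GC box (GGGCGG or CCGCCC) was found in 4 of the 8 member genes, Fgf10, Fgf18, Fgfr3 and Etv5, and in 32.7% of all windows. The androgen receptor half-site (AGAACA or TGTTCT) was found in 0 of the 8 and in 16.1% of all windows. The ETS site searched for, CCGGAA or TTCCGG, was found in 0 of the 8 and in 12.0% of all windows. Shorter or variant ETS sites were not searched for. No match says only that these letters are not in the window.

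Around the members, 54 other genes of the FGF pathway were examined (further ligands, co-receptors, binding proteins, adaptors, inhibitors and heparan sulphate enzymes). Of these, 52 were on the array and 50 were kept, with 89 probes. Between the sexes 2 probes were higher and 7 lower, 10.1% of the 89 against 6.19% of all probes. Il17rd (also called Sef), a membrane antagonist of FGF receptors, fell by 0.35 on 1 probe (SD 0.14, n = 5, adjusted p = 0.000781), with −0.03 and −0.01 on its other probes. The phosphatase Dusp4 fell by 0.25 (SD 0.07, adjusted p = 0.00523; −0.11 on the other probe, which did not pass), and Dusp7 fell by 0.26 (SD 0.15, adjusted p = 0.00338), each lower in all 5 pairs. Dusp4 and Il17rd passed under all 15 alternatives and Dusp7 under 13, the exceptions being the comparison fitted alone and the epithelial covariate.

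Sulf1, which removes sulphate groups from heparan sulphate and so alters FGF binding, fell by 0.50 in males (SD 0.28, adjusted p = 0.00256). Its pairs ran from −0.83 to −0.23, and its call did not hold with the comparison fitted alone or with the epithelial covariate (−0.30, adjusted p = 0.176). The membrane protein gene Flrt2 fell by 0.33 (adjusted p = 0.0184; −0.03 on its other probe). The intracellular Fgf13 fell by 0.29 (adjusted p = 0.0203) on 1 of 3 probes, and the secreted ligand Fgf9 fell by 0.20 (adjusted p = 0.0224). These 3 calls held under 11, 10 and 10 of 15 alternatives, and each was lost with the epithelial covariate. Fgf12, another intracellular member of the family, was higher on 2 of 3 probes, at 0.31 (adjusted p = 0.000727) and 0.17 (adjusted p = 0.0185), and stood at 0.12 (adjusted p = 0.0526) on the other. The first passed under all 15 alternatives and the second under 12, the exceptions being the epithelial covariate and leaving out replicate 1 or 4. With the scanner's ratios, which have no offset, they read 0.95 and 1.14. The mesenchymal marker list, which does not include these genes, had a mean log2 ratio of −0.20, −0.03, −0.43, −0.55 and −0.11 in the same pairs, with 14 of 14 markers measured and a summed level of 16.01 to 17.20 in males and 16.98 to 17.18 in females. The part of mesenchyme in these falls was not tested.

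At 6 h 1 of the 89 probes was higher and 1 lower, 2.25% against 1.69% of all probes. The FGF-binding protein gene Fgfbp3 was at 0.23 on 1 probe (SD 0.02, n = 4, adjusted p = 0.0301) and at 0.01 on the other, and Dusp7 fell by 0.27 (SD 0.06, adjusted p = 0.0244). Neither call held without any one of the 4 replicates, with median centring, or with replicate 1 alone, where Fgfbp3 read 0.26 (adjusted p = 0.506) and Dusp7 −0.34 (adjusted p = 0.356). The largest ratios there were those of the phosphatase gene Ptpn11, which relays receptor signals, at −0.46 (SD 0.18, adjusted p = 0.0501), and of the heparan sulphate proteoglycan Sdc1, at −0.31 (adjusted p = 0.116). At 12 h 0 of the 89 passed in limma, with 9 at an unadjusted p under 0.05. The largest ratios there were those of the binding protein Fgfbp1 at 0.41 (SD 0.47, n = 3, adjusted p = 0.231) and of Flrt3 at −0.21 (SD 0.15, adjusted p = 0.169).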

How the data were processed

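The 24 arrays carry 12 pairs of pools, each in both dye orientations. The scanner tables came from Agilent's Feature Extraction 7.5.1, per the file headers, with the intensity of each spot in both channels and a log10 ratio already dye-normalised. The deposited series matrix holds the authors' log2 ratios, whose normalisation is not given in the sources used here. Both sets of ratios served as alternatives. Spot signals went through normexp (offset 50) and loess within arrays (limma 3.58.1, R 4.3.3). Outlier spots were dropped, swapped arrays turned, and the arrays of a pair averaged. Levels are from Aquantile. Probes well above background in a channel on at least 6 of 24 arrays were kept, 35477 of 41174, with all 19 member probes among them. A single limma fit over the 12 pairs gave each comparison and their differences, per probe. On simulated data of 35477 probes, with noise drawn independently for each probe and pair, it recovered 72% (6 h), 54% (12 h) and 82% (male over female) of changes of 0.3. Deviations shared between probes were not simulated, so recovery on these arrays can differ. Members and lists were chosen with earlier results of these data known. Other pathway genes were named if a probe passed or was among the 2 largest ratios of a comparison. The number of arrays limits the precision. The labels do not say that replicate pools came from separate litters, so p-values measure the spread between these pools. Probe sequences were not used here.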

Additional observations from a re-analysis of the deposited data

Results flagged for a closer look

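Among 38 sets of ratios (19 probes, in the 4 pairs at 6 h and the 5 male-female pairs), 3 held 1 pair far from the others, where chance alone gives about 1 in 20. At 6 h the Dusp6 ratio of replicate 2 was −0.20, while the other 3 pairs lay between 0.03 and 0.05. Replicate 2 also had the highest Y-linked level among the 6 h vehicle pools, whose part in that ratio was not tested. Between the sexes, Etv5 probe 1 read 0.13 in replicate 3 and 0.01 to 0.03 in the others. Replicate 4 of Fgfr1 probe 3 stood at a ratio of 0.022, with the other 4 pairs between −0.05 and −0.03. Neither probe passed.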

How the results depend on the processing

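Of 16 member ratios and differences that passed, 0 changed sign in 275 recomputations and 51 lost the call. Among the 98 that did not pass, 8 of 1540 recomputations passed and 96 changed sign. The count of 1 probe at 6 h became 0 with median centring, scanner ratios, the comparison fitted alone, the replicate block, the epithelial covariate and replicate 1 alone, and was 0 to 1 leaving out a replicate. The male-female count of 7 became 4 with the epithelial covariate and ranged from 5 to 7 leaving out a replicate. Without replicate 3 the probes changed: Fgf10 and Fgfr3 probe 2 lost the call, and Fgfr2 probe 2 and Spry2 probe 2 gained it. The male-female minus 6 h count of 6 became 2 with that covariate and 3 with 6 h replicate 1 alone, and ranged from 5 to 7 leaving out a replicate. The male-female minus 12 h count of 2 became 1 with median centring, scanner ratios, the comparisons fitted alone and the replicate block, 3 with the covariate (Fgfr3 probe 1 added), and 1 to 2 leaving out a replicate. The 12 h minus 6 h count of 0 became 1 (Fgfr2 probe 1) with median centring and the replicate block. For the other pathway genes, run after the data were seen, the 6 h count of 2 became 0 with median centring, scanner ratios, the replicate block, the epithelial covariate and replicate 1 alone, and was 0 without any one replicate. Their male-female count of 9 became 4 with the comparison fitted alone and 3 with the epithelial covariate. The cause of these shifts was not tested, beyond fewer samples where replicates were left out. Replicate numbers are not said to pair comparisons: deviations of same-numbered pairs correlated at −0.0615 to 0.272 and 5 of 10 matched their own number best. With the block, 8 member probes passed between the sexes (Spry2 probe 2 added, adjusted p = 0.0359). Over all probes the count of 599 at 6 h ranged from 2 (replicate 1 alone) to 996 (series matrix), that of 98 at 12 h from 0 to 172, and that of 2197 between the sexes fell to 1017 with the comparison fitted alone and 864 with the covariate. The higher and lower calls were 161 and 438 at 6 h, 9 and 262 with median centring and 4 and 46 with scanner ratios. At 12 h they were 35 and 63, 19 and 9 with median centring, 6 and 2 without background correction. Between the sexes they were 1104 and 1093, and 685 and 1077 with median centring. Dim probes limit Fgfr1 probe 4, Fgfr2 probe 3, Fgfr3 probe 3 and Etv5.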
